A study of Mus musculus with 24 samples.

Results

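Genes of the FOXO programme of muscle protein breakdown and autophagy are described here in newborn mice whose mothers had eaten a low or a normal protein diet, with or without taurine. They were Fbxo32, Trim63, Foxo3, Foxo4, Klf15, Sesn1, Gabarapl1, Map1lc3b, Sqstm1 and Bnip3, 10 of the 18193 genes that the arrays measured with a probe set of a single gene symbol. Each was taken by name, and together they have 23 such probe sets among 45101.

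RNA was measured on Affymetrix arrays in hindleg muscle and liver of C57BL/6 pups on day 0 after birth. The dams received their diet from day 1 of pregnancy to birth: 20% casein (NP), 20% casein with 1% taurine in the drinking water (NPtau), 8% casein (LP), or 8% casein with 1% taurine in the water (LPtau). Each diet has 3 arrays in each tissue, 24 in all. The labels name these as biological replicates without stating whether pups of a group had separate dams, so the p-values measure only the spread between these samples. Values are log2 signals made by RMA, a method that corrects and summarises array intensities, separately in each tissue. Amounts were therefore not compared between tissues, nor between genes, because probe sets differ in how strongly they bind. Levels were set side by side only to check tissue identity and to mark signals near the bottom of the array's range.

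FOXO transcription factors are held out of the nucleus by insulin and IGF signalling through AKT, and enter it when nutrients or growth signals are scarce. In adult skeletal muscle they switch on the muscle ubiquitin ligases Fbxo32 (atrogin-1) and Trim63 (MuRF1), which mark proteins for the proteasome, together with genes of autophagy and mitophagy, the digestion of cytoplasm and of mitochondria in lysosomes. Klf15, a transcription factor induced by glucocorticoids, acts on the same ligases and on amino acid use, and Sesn1, a sestrin, restrains the growth kinase mTORC1 when amino acids are low.

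The promoters of Trim63 and Sesn1 are printed because these genes, with Fbxo32, had the smallest p-values of the 10 genes between LP and NP in muscle. RefSeq promoter sequences of build GRCm38.p6, from 250 bases before to 50 bases after a transcript start, were available for 8 of the 10 genes, Sesn1 with 2 starts. Fbxo32 and Foxo4 were not in that table. Capitals mark TGTTTAC, the reverse complement of the FOXO element GTAAACA, and in Trim63 also TGTTCT, the reverse complement of the glucocorticoid receptor hexamer AGAACA, which lies directly before it. The Trim63 window is chr4:134314870-134315169 and the Sesn1 window is chr10:41810324-41810623, both on the plus strand.
Trim63: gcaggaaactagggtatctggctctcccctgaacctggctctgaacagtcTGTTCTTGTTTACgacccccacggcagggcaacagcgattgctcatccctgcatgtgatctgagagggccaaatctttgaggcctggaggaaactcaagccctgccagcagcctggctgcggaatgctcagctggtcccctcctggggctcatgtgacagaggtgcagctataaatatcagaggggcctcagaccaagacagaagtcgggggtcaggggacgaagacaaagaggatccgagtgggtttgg
Sesn1: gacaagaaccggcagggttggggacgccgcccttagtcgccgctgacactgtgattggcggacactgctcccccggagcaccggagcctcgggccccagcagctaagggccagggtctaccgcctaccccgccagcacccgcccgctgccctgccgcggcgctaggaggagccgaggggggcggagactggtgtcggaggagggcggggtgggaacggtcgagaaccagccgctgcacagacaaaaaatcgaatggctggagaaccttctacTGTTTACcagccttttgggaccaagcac

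In Trim63 the TGTTCT and TGTTTAC letters begin at positions -200 and -194 relative to the transcript start. In the printed Sesn1 window TGTTTAC begins at position 22, after the start. Both strands were searched, and GTAAACA was found in 3.65% of 32851 promoters of the same length in the table, AGAACA in 18.974%. The shorter core TAAACA, which GTAAACA contains, was found in 13.443% and occurred also in Gabarapl1, at -94. CACGTG, the E-box to which the lysosomal regulator TFEB binds, was found in 7.15% of promoters, and in Klf15 at -228, -172 and -3 and in Bnip3 at -108. The window of the other Sesn1 start, chr10:41887189-41887488, held none of these letters. A match is a description of the letters only.

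In muscle the probe sets used for Fbxo32, Trim63, Sesn1 and Gabarapl1 were all below NP on the 3 LP arrays. Trim63 was higher on every LPtau array than on any LP array. None of these differences passed the test across all genes. Fits were made with limma on the 12 arrays of a tissue, and calls needed an adjusted p under 0.05 (Benjamini-Hochberg, over the 18193 genes). In muscle 0 of the 10 genes were called for LP against NP, where 0.126% of all genes were called, and 3 of the 10 had an unadjusted p under 0.05, as did 10.8% of all genes. For LPtau against LP 0 of the 10 were called, against 0.022% of all genes, and 2 had an unadjusted p under 0.05, against 12.9%. Weighting the arrays by how well they fit, an alternative chosen after seeing the data, called Fbxo32 and Sesn1 for LP against NP, with limma adjusted p = 0.0429 and 0.0376. That setting called 789 of the 18193 genes, beside 23 without weights.

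Of the 10 genes 9 had a negative LP minus NP difference in muscle, and the 10 had a median of -0.24 on the log2 scale. Among all genes 47.6% had a positive difference, and their median was -0.01. Foxo4 was the exception. The sign was not fixed for Map1lc3b and Klf15, which kept it in 17 and 18 of 23 alternative fits, while the other genes kept it in all 23. All signs rest on the same LP and NP arrays, so they are not separate evidence. The 10 genes were also chosen with earlier results of these data known. That limits this and the later comparisons of them with all genes. Values of LP entirely below those of NP were found for 4 of the 10 genes and for 11.6% of all genes.

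**Figure D1:**
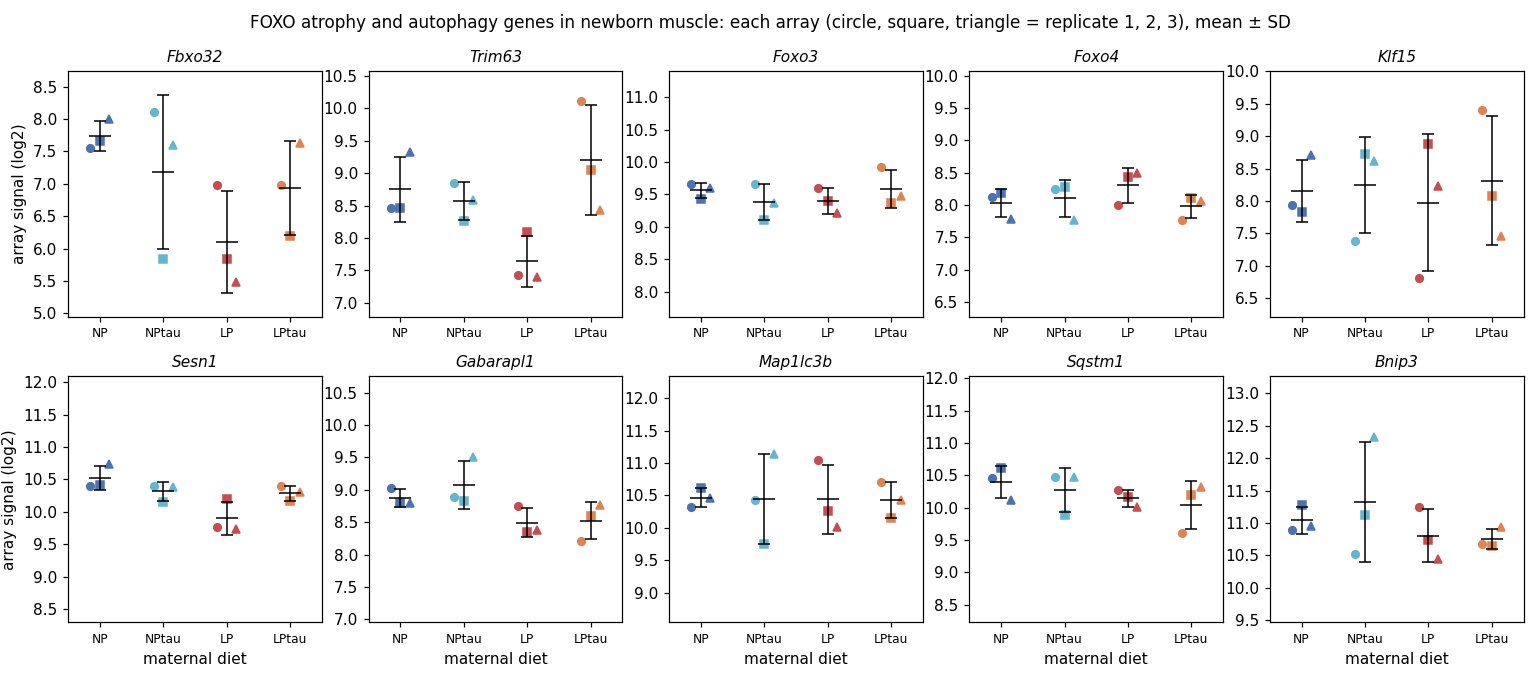
Log2 array signal (vertical axes, equal spans) of the 10 genes in hindleg muscle for the 4 maternal diets. Symbols are single arrays, the horizontal line is the mean and the bar the SD of 3 arrays. The LP arrays of Fbxo32, Trim63, Sesn1 and Gabarapl1 lie below all 3 NP arrays, and the LPtau arrays of Trim63 lie above all 3 LP arrays.

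The ubiquitin ligases had the widest differences. Fbxo32, the F-box protein that brings substrates to an SCF ubiquitin ligase, had log2 signals of 7.56, 7.66 and 7.99 on the NP arrays, 8.12, 5.84 and 7.60 on NPtau, 6.98, 5.84 and 5.48 on LP, and 6.99, 6.19 and 7.63 on LPtau. The NP arrays lay close together and those of the other diets did not, with NPtau replicate 2 as low as LP replicate 2. In order the diet means were NP 7.74 ± 0.23 (SD, n = 3), NPtau 7.18 ± 1.20, LPtau 6.94 ± 0.72 and LP 6.10 ± 0.79. LP minus NP was -1.64 (SE 0.57, 95% interval -2.89 to -0.38, limma adjusted p = 0.307), which places LP at 32.2% of the NP signal. With 1 array left out in turn it ranged from -2.08 to -1.33. LPtau minus LP was 0.84 (SE 0.57, adjusted p = 0.544 with limma), and its interval of -0.42 to 2.09 includes 0. Leaving out 1 array moved it to between 0.49 (without LPtau replicate 3) and 1.28 (without LP replicate 1).

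All 3 probe sets of Fbxo32 had a negative LP minus NP difference in muscle. The 2 not used for the gene gave -1.20 (SE 0.55) and -0.75 (SE 0.35), with limma adjusted p = 0.469 and 0.485 over all probe sets. They did not share the value for LPtau against LP, which was 0.02 and 0.43.

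Trim63, the RING finger ligase of the sarcomere, had log2 signals of 8.46, 8.46 and 9.33 on NP, 8.85, 8.27 and 8.59 on NPtau, 7.43, 8.10 and 7.40 on LP, and 10.12, 9.06 and 8.43 on LPtau. The LP arrays lay below every array of the other 3 diets, a pattern whose share among all genes was not counted. LPtau replicate 1 had the highest value of the tissue. The LP minus NP difference was -1.11 (SE 0.39, 95% interval -1.98 to -0.24, limma adjusted p = 0.317), or 46.4% of the NP signal. LPtau minus LP was 1.56 (SE 0.39, 95% interval 0.69 to 2.43, adjusted p = 0.166 with limma), or 294% of the LP signal. The second difference depended in size on the arrays that stand apart: without LP replicate 1 and LPtau replicate 1 it was 0.99 (limma adjusted p = 0.294), a setting chosen after seeing the data. Complete separation of LPtau above LP was found for 1 of the 10 genes, Trim63, and for 9.03% of all genes.

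Whether the low protein difference depended on taurine was tested as LPtau minus NPtau less LP minus NP. This interaction was 1.74 for Trim63 (SE 0.56, limma adjusted p = 0.707), 1.39 for Fbxo32 (SE 0.81, adjusted p = 0.797) and 0.59 for Sesn1 (SE 0.22, adjusted p = 0.730). For Fbxo32 it ran from 0.72 without NPtau replicate 2 to 1.86 without NPtau replicate 1. By limma 0 of the 10 genes and 0% of all genes were called for it in muscle, while 2 of the 10 and 6.56% of all genes had an unadjusted p under 0.05.

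**Figure D2:**
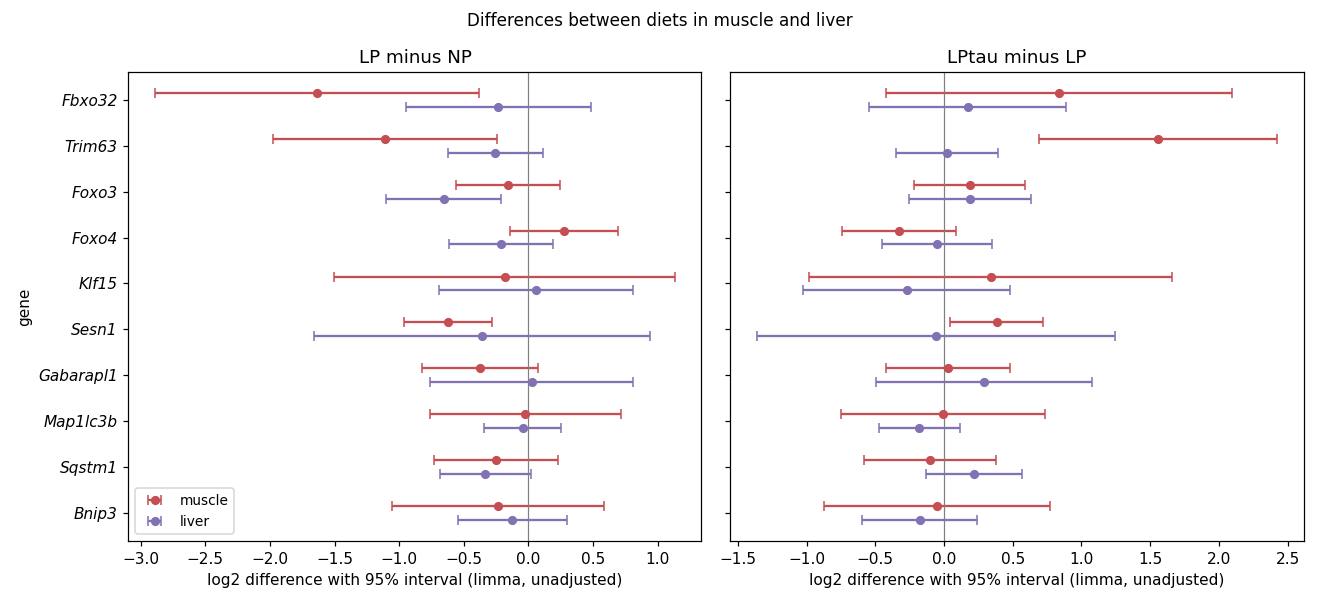
Log2 differences of the 10 genes (rows) for LP minus NP (left) and LPtau minus LP (right) in muscle and liver, with 95% intervals from limma that are not adjusted for multiple testing. In muscle the LP minus NP intervals of Fbxo32, Trim63 and Sesn1 lie below 0 and the LPtau minus LP intervals of Trim63 and Sesn1 above it, but no adjusted p was under 0.05.

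Of the transcription factors, none stood apart from the spread in muscle. Foxo3, the FOXO factor best known for driving the ligases and autophagy, had log2 signals of 9.65, 9.43 and 9.60 on NP, 9.60, 9.40 and 9.21 on LP, and 9.92, 9.37 and 9.48 on LPtau. These ranges overlap, and LP minus NP was -0.16 with a 95% interval of -0.56 to 0.24. Foxo4, which shares the DNA-binding domain of Foxo3, read 8.13, 8.18 and 7.78 on NP, 8.00, 8.44 and 8.49 on LP, and 7.77, 8.11 and 8.06 on LPtau. LP replicates 2 and 3 of Foxo4 lay above all NP arrays and replicate 1 among them, so that LP minus NP was 0.28 (95% interval -0.14 to 0.69). Array signal measures messenger RNA and says nothing of where the FOXO proteins were in the cell or how they were modified.

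Klf15 had the widest spread of the 3 factors. Its log2 signals were 7.94, 7.83 and 8.71 on NP, 7.39, 8.72 and 8.61 on NPtau, 6.81, 8.88 and 8.23 on LP, and 9.41, 8.08 and 7.45 on LPtau. The lowest array of the tissue was LP replicate 1 and the highest LPtau replicate 1. LP minus NP was -0.18 (SE 0.60, 95% interval -1.50 to 1.14), and leaving out 1 array at a time gave -0.64 to 0.40, so the sign was not fixed.

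Sesn1 had the smallest p of the 10 genes for LP against NP in muscle. Its log2 signals were 10.40, 10.42 and 10.74 on NP, 10.41, 10.15 and 10.39 on NPtau, 9.76, 10.20 and 9.74 on LP, and 10.39, 10.16 and 10.30 on LPtau. All LP arrays lay below all NP arrays, and LP replicate 2 lay above the lowest array of NPtau and of LPtau. The difference of LP from NP was -0.62 (SE 0.15, 95% interval -0.96 to -0.28, limma adjusted p = 0.138), or 64.9% of the NP signal. LPtau minus LP was 0.38 (SE 0.15, limma adjusted p = 0.335). Of its 4 probe sets 3 had a negative LP minus NP difference, and the probe set with the largest variance gave -0.39 (limma adjusted p = 0.794), and 0.81 for LPtau minus LP (limma adjusted p = 0.394).

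**Figure D3:**
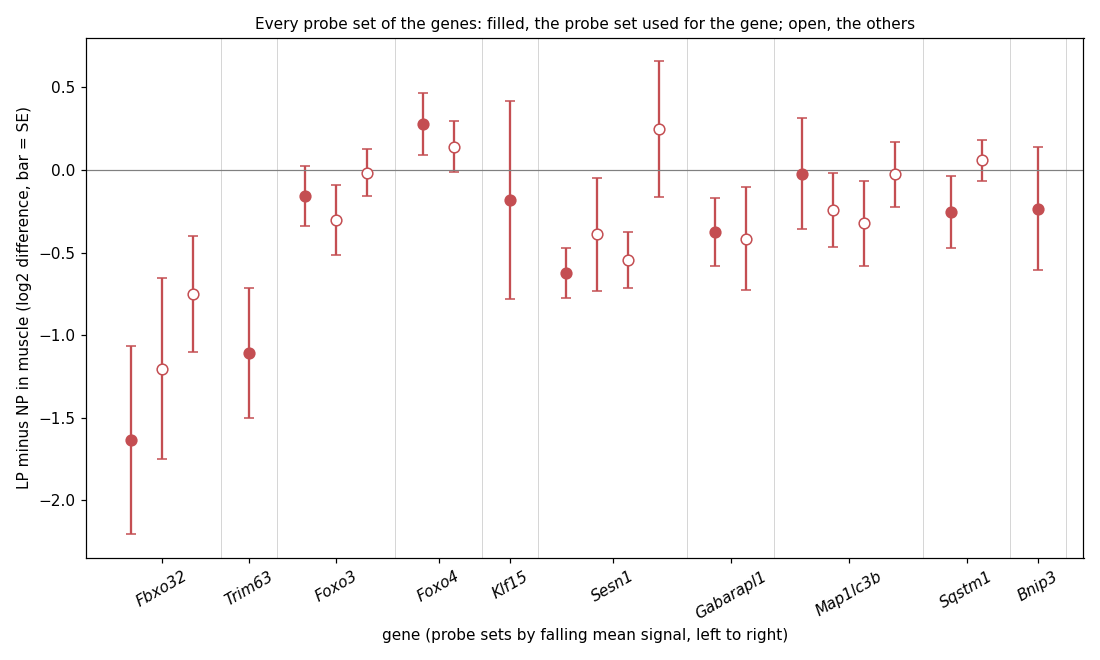
LP minus NP log2 difference in muscle (vertical axis, bars are the SE from limma) for all 23 probe sets of the 10 genes. Filled points are the probe sets used for the genes and open points the others. All 3 points of Fbxo32 and 3 of 4 of Sesn1 lie below 0, and both of Foxo4 lie above it. The open Foxo4 point is from a probe set near the bottom of the range, at 4.39 to 4.49 on NP.

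The autophagy genes were split. Gabarapl1, an ATG8 protein that lines the autophagosome and is induced by FOXO3 in adult muscle, had log2 signals of 9.03, 8.79 and 8.79 on NP, 8.89, 8.83 and 9.50 on NPtau, 8.75, 8.36 and 8.38 on LP, and 8.21, 8.59 and 8.77 on LPtau. On the probe set used for the gene, all 6 arrays of low protein diets lay below all 6 arrays of normal protein diets, as for 0.379% of all genes. The other Gabarapl1 probe set did not separate the diets. It read 7.57 on LP replicate 1 and 7.64 on LPtau replicate 3, against 7.52 on NP replicate 1 and 7.50 on NPtau replicate 2. For the probe set used, the difference between the mean of both low protein diets and the mean of both normal protein diets was -0.46 (SE 0.14, 95% interval -0.78 to -0.15, limma adjusted p = 0.315), or 72.5% of the normal protein signal. The other probe set also gave a negative difference. In that comparison 0 of the 10 genes were called by limma, against 0.0165% of all genes, and 3 of the 10 had an unadjusted p under 0.05, against 10.8% of all genes. LPtau minus NPtau was -0.55 for Gabarapl1 (SE 0.20, limma adjusted p = 0.737) and LPtau minus LP was 0.03 (SE 0.20).

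LPtau values entirely below NP were found for Gabarapl1 and Sesn1, 2 of the 10 genes, and for 5.43% of all genes. LPtau values entirely below NPtau were found for Gabarapl1 alone among the 10, and for 3.78% of all genes. The other Gabarapl1 probe set showed neither separation. By limma neither comparison called any of the 10 genes nor any other gene (0%). At an unadjusted p under 0.05 there were 0 of the 10 and 3.75% of all genes for LPtau against NP, and 1 of the 10 and 5.45% of all genes for LPtau against NPtau.

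Map1lc3b encodes LC3B, the ATG8 protein most used as a marker of autophagosomes. Its muscle signals were 10.32, 10.61 and 10.46 on NP, 10.43, 9.75 and 11.14 on NPtau, 11.04, 10.25 and 10.02 on LP, and 10.71, 10.15 and 10.43 on LPtau. On the probe set used the diets overlapped fully, and LP minus NP was -0.02 (95% interval -0.76 to 0.72). Another Map1lc3b probe set read 10.38, 10.58 and 10.61 on NP and 10.53, 10.24 and 10.07 on LP. All 4 probe sets had a negative difference, and by limma 0 had an unadjusted p under 0.05. They include a weak probe set, at 4.35 to 4.61 on NP. Sqstm1, or p62, which ties ubiquitinated cargo to ATG8 proteins and is itself degraded with it, read 10.47, 10.61 and 10.12 on NP, 10.27, 10.16 and 10.01 on LP, and 9.61, 10.19 and 10.31 on LPtau. LP replicates 1 and 2 lay among the NP arrays, and LP minus NP was -0.25 (95% interval -0.73 to 0.23).

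Bnip3, a mitophagy receptor of the outer mitochondrial membrane, had signals of 10.88, 11.28 and 10.96 on NP, 10.52, 11.12 and 12.33 on NPtau, 11.24, 10.74 and 10.44 on LP, and 10.68, 10.64 and 10.94 on LPtau. NPtau held both the highest array and an array below all NP arrays. Its LP minus NP difference was -0.23 (95% interval -1.06 to 0.59). On NPtau replicate 3 Bnip3, Map1lc3b and Gabarapl1 all reached their highest value of the 12 muscle arrays.

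Taurine under normal protein left no gene called in muscle. For NPtau against NP limma called 0 of the 10 genes and 0% of all genes, and 0 of the 10 and 0.484% of all genes had an unadjusted p under 0.05. The differences of the 10 genes ran from -0.55 (Fbxo32, 95% interval -1.81 to 0.70) to 0.29 (Bnip3, 95% interval -0.54 to 1.11).

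Marker lists of fibre maturity and of other cell types differed between the muscle arrays, some by diet and some within a diet. Fast fibre and mature muscle genes (18 measured) had a negative LP minus NP difference for 18 of 18, of which Pvalb, Mybpc2 and Actn3 (3 genes) fell by limma, with a median of -0.71. Their mean relative to the NP mean was -1.66, -0.94 and -1.29 on the LP arrays, -0.65, -0.20 and 0.02 on LPtau, 0.06, -0.60 and -0.26 on NPtau, and between -0.05 and 0.05 on NP. The LP arrays were thus the lowest for this list, as they were for Trim63, and NPtau replicate 2, which was low for Fbxo32, was the lowest of its diet. For LPtau against LP 18 of 18 differences were positive and 2 genes, Pvalb and Mybpc2, rose by limma, with a median of 0.61. Muscle genes expressed at any age (12 measured) stood at -0.86, 0.00 and -0.18 on the LP arrays, with a median difference of -0.26. Whole hindleg muscle was measured, so fewer cells of a type and less RNA per cell cannot be told apart.

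Cartilage and bone genes (11 measured) were 2.66, 3.14 and -0.73 relative to NP on LP replicates 1 to 3, 1.75 to 2.21 on LPtau, -0.89 to 0.53 on NP and -0.40 to 0.94 on NPtau. On LP replicate 3, the LP array low for this list, Fbxo32, Trim63 and Sesn1 had their lowest values of the tissue. LP replicate 1, high for the list, was nearly as low for Trim63 (7.43 against 7.40) and Sesn1 (9.76 against 9.74). For Fbxo32 it was not (6.98 against 5.48). Fat genes (9 measured) ran from -1.14 to -0.59 on LP and from -1.65 to 0.08 on LPtau. On NPtau they were -1.62, -0.30 and 1.52, with the highest value on replicate 3, the array on which Gabarapl1, Map1lc3b and Bnip3 were highest. Endothelial genes (10 measured) had 10 of 10 negative differences between the low and the normal protein diets, with a median of -0.37 and 6 at an unadjusted p under 0.05, though none was called by limma. They stood at -0.67 to -0.23 on LP, -0.83 to -0.11 on LPtau, -0.26 to 0.28 on NPtau and -0.13 to 0.07 on NP, so that replicate 3 of LP and of LPtau reached into the NPtau range. Gabarapl1 was likewise lower in the mean of both low protein diets. Liver cell genes (10 measured) reached 1.49 on LP replicate 3. The part of fibre maturity and of cartilage, bone, fat, endothelial and liver cell RNA in the differences of the 10 genes was not tested.

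**Figure D4:**
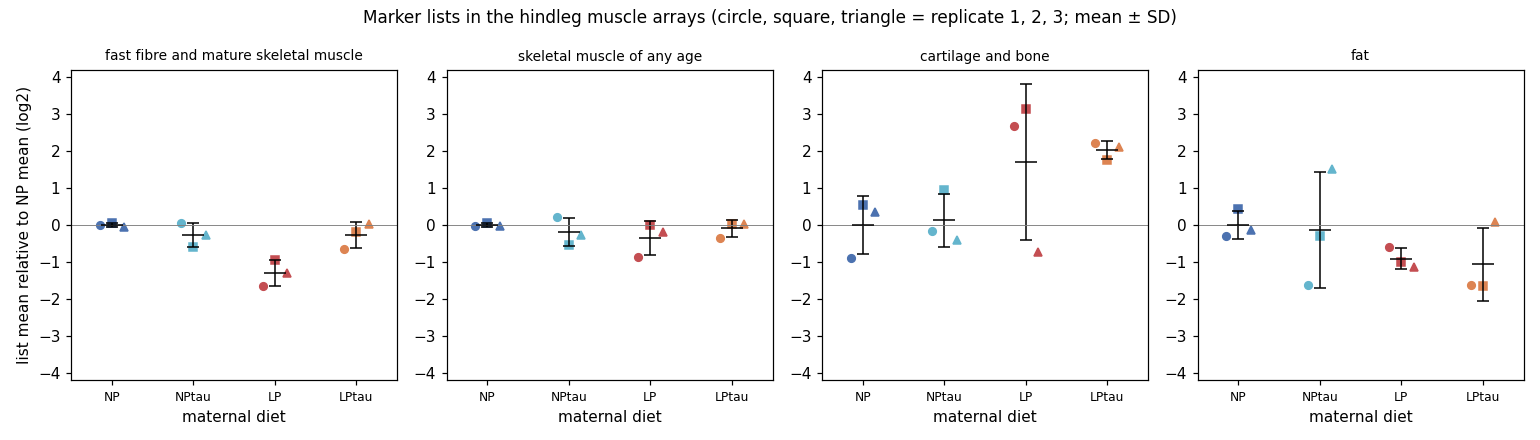
Mean log2 signal of 4 marker lists on each hindleg muscle array, relative to the mean of the NP arrays (vertical axes), by maternal diet. Symbols are single arrays, the line is the mean and the bar the SD of 3 arrays. Fast fibre genes are between -1.66 and -0.94 on the LP arrays, and cartilage and bone genes are high on LP replicates 1 and 2 and on all LPtau arrays.

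Arrays agreed less in some groups than in others. The median correlation of an array with the others of its tissue was 0.963 for muscle LPtau replicate 1 and 0.965 for muscle LP replicate 1, and 0.979 to 0.989 for the other 10 muscle arrays. Without those 2 arrays LP minus NP was -2.08 for Fbxo32, -1.0 for Trim63 and -0.56 for Sesn1, with limma adjusted p = 0.118, 0.152 and 0.127. By Xist and Y-linked genes the LP and NPtau groups held 2 females and 1 male and the NP and LPtau groups 1 female and 2 males. With sex in the fit the same differences were -1.52, -0.995 and -0.55, with limma adjusted p = 0.502, 0.514 and 0.240. Tissue identity matched the labels, since the fast fibre list averaged 11.81 on the log2 scale in muscle arrays and 5.18 in liver arrays, and the liver cell list 5.37 and 13.62.

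Genes around the 10 in the same pathways were drawn from 9 lists with 194 measured genes. In muscle 0 of the 194 rose or fell by limma for LP against NP, and 13.9% had an unadjusted p under 0.05, against 10.8% of all genes. The list of other genes that FOXO factors induce (25 measured) had 16 negative differences and a median of -0.30. Its smallest p belonged to Pdk4, the kinase that turns off pyruvate oxidation, at -3.02 (SE 0.62, limma adjusted p = 0.0930). Other ubiquitin ligases and adaptors (18 measured) had a median of -0.01, and Fbxo31 stood at -1.02 (SE 0.20, limma adjusted p = 0.0816).

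Genes for branched chain amino acid and lipid use, among which are partners of KLF15, had 13 of 13 negative differences for LP against NP in muscle and a median of -0.35. Slc2a4, the insulin-sensitive glucose transporter GLUT4, had the smallest p, at -0.70 (SE 0.16, limma adjusted p = 0.115). Glucocorticoid-induced genes (20 measured) had 14 negative differences and a median of -0.20, with Mt1, a metallothionein, at -1.27 (SE 0.29, limma adjusted p = 0.113). Denervation and inactivity genes (18 measured) had 14 negative differences, a median of -0.27, and Ankrd1, a stress-responsive muscle ankyrin repeat protein, at -1.91 (SE 0.47, limma adjusted p = 0.138).

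The remaining lists stayed near 0 in muscle. The proteasome subunits (31 measured) had a median of -0.04, with 25 negative differences, and Psmd6 at -0.37 (SE 0.23). Other autophagy and mitophagy genes (37 measured) had a median of 0.07, with 23 positive, and Atg4c, an ATG8 protease, at 0.70 (SE 0.21, limma adjusted p = 0.231). Lysosomal genes and TFEB factors (20 measured) had a median of 0.01, with the cholesterol exporter Npc1 at 0.58 (SE 0.16, limma adjusted p = 0.180). FOXO factors and their regulators (16 measured) had a median of 0.02. The median of the other autophagy genes had the opposite sign to the median of the 10 genes.

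For LPtau against LP in muscle 0 of the 194 were called by limma, and 13.9% had an unadjusted p under 0.05, against 12.9% of all genes. Slc2a4 was at 0.91 (SE 0.16, limma adjusted p = 0.0878) and Fbxo31 at 0.86 (SE 0.20, limma adjusted p = 0.153). Trp53inp2, an autophagy scaffold of muscle, was at 1.15 (SE 0.23, limma adjusted p = 0.115). Npc1 was at -0.58 (SE 0.16, limma adjusted p = 0.197). The LP arrays enter both this comparison and that with NP, so opposite signs in them are not separate evidence.

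In liver 8 of the 10 genes had a negative LP minus NP difference, with a median of -0.22 over the 10, while 58.5% of all genes had a positive difference. These 8 include Trim63, whose liver signal was near the bottom of the range, and all signs rest on the same arrays. Foxo3 had the smallest p of the 10. Its log2 signals were 10.16, 9.62 and 10.07 on NP, 9.64, 9.35 and 10.03 on NPtau, 9.09, 9.32 and 9.47 on LP, and 9.53, 9.23 and 9.69 on LPtau. Every LP array lay below every NP array, which 1 of the 10 genes and 10.9% of all genes showed in liver on the probe sets used. LP minus NP was -0.65 (SE 0.20, 95% interval -1.10 to -0.21, limma adjusted p = 0.102), or 63.5% of the NP signal, and -0.82 to -0.55 when 1 array was left out. A second Foxo3 probe set gave 9.28, 8.74 and 9.19 on NP and 8.12, 8.17 and 8.50 on LP. That probe set has the larger variance, and taking it for the gene called Foxo3 as lower in LP, at -0.81 with limma adjusted p = 0.0484. Over all genes the alternative fits of this comparison called 21 to 4727, beside 425. The third probe set read 0.00 with an SE of 0.13, at a mean log2 signal of 4.36.

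By limma 0 of the 10 genes were called for LP against NP in liver, against 2.34% of all genes, and 1 of the 10 had an unadjusted p under 0.05, against 22.7% of all genes. For the mean of both low protein diets against both normal protein diets 0 of 10 were called, against 1.48% of all genes. Foxo3 had -0.42 in that comparison (SE 0.14, limma adjusted p = 0.158). At an unadjusted p under 0.05 there were 1 of the 10 and 18.1% of all genes there. Over all genes its alternative fits called 13 to 2616, beside 269. With all probe sets tested, Map1lc3b was called in that comparison through a probe set at -0.35 (SE 0.07, limma adjusted p = 0.0488). That probe set read 11.52, 11.64 and 11.33 on NP, 11.40, 11.37 and 11.31 on NPtau, 11.02, 11.04 and 11.08 on LP, and 11.18, 10.95 and 11.15 on LPtau. The probe set used for Map1lc3b, which has the higher mean signal, gave -0.11 in the same comparison (95% interval -0.32 to 0.10). The probe sets of this gene thus disagree in size. LP minus NP on the probe set used was -0.05 (95% interval -0.34 to 0.25).

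**Figure D5:**
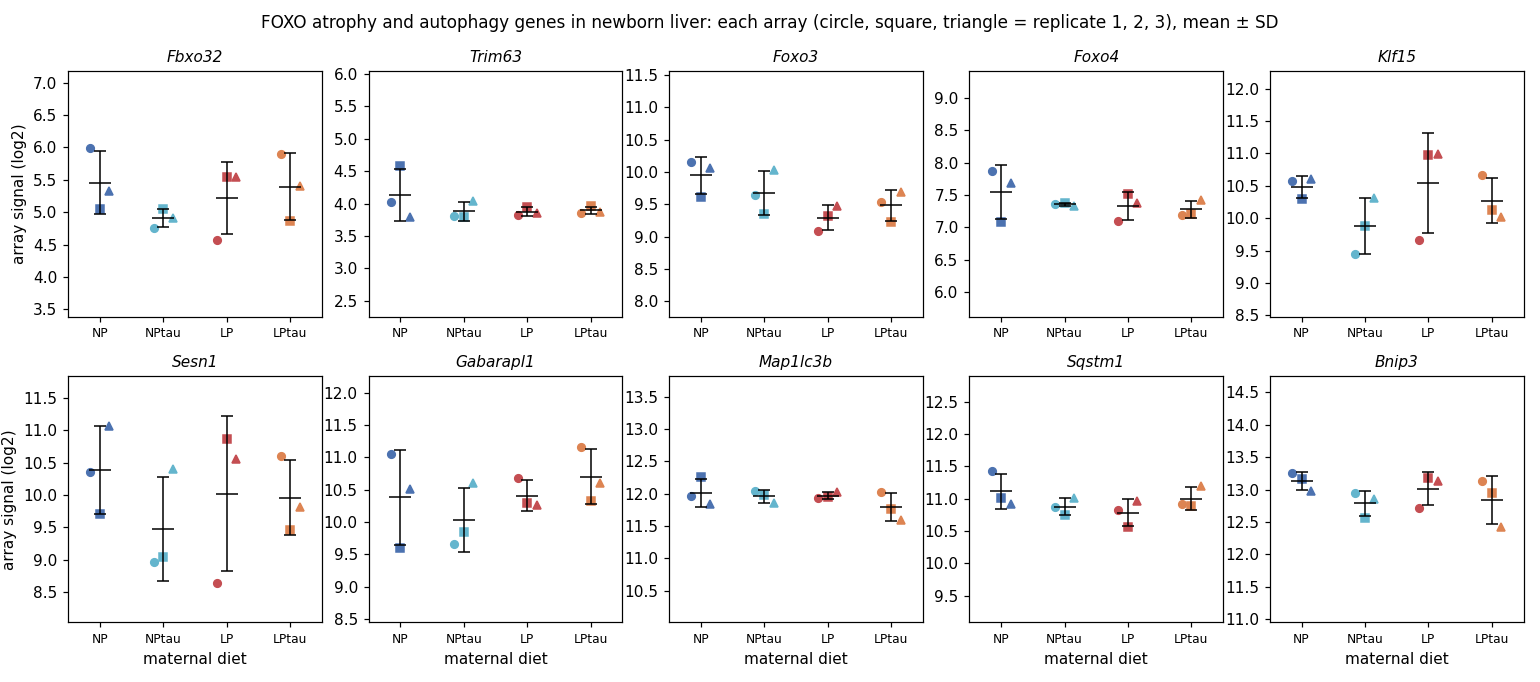
Log2 array signal (vertical axes, equal spans) of the 10 genes in liver for the 4 maternal diets. Symbols are single arrays, the line is the mean and the bar the SD of 3 arrays. The LP arrays of Foxo3 lie below all 3 NP arrays, Sesn1 is spread most widely, and Trim63 lies between 3.79 and 4.57.

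The ligases, whose adult expression is largely confined to striated muscle, gave little signal in liver. Trim63 read 3.79 to 4.57 over the 12 liver arrays, and its mean was at the 6.82 percentile of all genes. Fbxo32 read 4.58 to 5.99. With such signals a difference in liver was not detectable for Trim63. Whether LP minus NP differed between the tissues was tested on all 24 arrays, with the probe set of highest mean over both tissues. By limma 0 of the 10 genes were called for it, against 1.97% of all genes, and 0 of the 10 had an unadjusted p under 0.05, against 17.1%. For Fbxo32 that fit used another probe set than the muscle fit, at -1.20 in muscle and -0.23 in liver, so its muscle difference of -1.64 was not the value tested. Muscle and liver arrays of the same diet and number matched in sex in 12 of 12 cases, and their deviations correlated at 0.03 to 0.19, so they may come from the same pup, which the labels do not state. With diet and number as a block 0 of the 10 genes were called.

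On the probe sets used, Klf15, Sesn1 and Gabarapl1 had overlapping LP and NP values in liver. Klf15 read 10.57, 10.29 and 10.60 on NP, 9.44, 9.87 and 10.31 on NPtau, 9.66, 10.98 and 10.99 on LP, and 10.67, 10.12 and 10.01 on LPtau. Sesn1 read 10.36, 9.71 and 11.07 on NP, 8.97, 9.04 and 10.40 on NPtau, 8.65, 10.86 and 10.55 on LP, and 10.60, 9.46 and 9.82 on LPtau. LP replicate 1 was the low array of its diet for both genes. Another Sesn1 probe set read 9.17, 8.70 and 9.75 on NP and 7.17, 8.68 and 8.61 on LP, without overlap. Of the 4 Sesn1 probe sets 1 had a positive LP minus NP difference in liver. By limma 1 of the 4 had an unadjusted p under 0.05 and 0 were called. Gabarapl1 read 11.05, 9.60 and 10.50 on NP and 10.68, 10.29 and 10.26 on LP. LP minus NP was 0.06 for Klf15 (95% interval -0.69 to 0.81), -0.36 for Sesn1 (95% interval -1.66 to 0.94) and 0.03 for Gabarapl1 (95% interval -0.76 to 0.81).

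Sqstm1 in liver read 11.42, 11.005 and 10.92 on NP, 10.82, 10.56 and 10.96 on LP, and 10.91, 10.88 and 11.20 on LPtau. Only LP replicate 3 reached into the NP range, and LP minus NP was -0.33 (SE 0.16, limma adjusted p = 0.243). Foxo4 had -0.21 (95% interval -0.62 to 0.19) and Bnip3 -0.12 (95% interval -0.54 to 0.29).

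With taurine under normal protein all 10 genes had a negative difference from NP in liver, with a median of -0.31, while 58.1% of all genes had a positive difference. The count includes Trim63, whose liver signal was near the bottom of the range, and its signs rest on the same NP and NPtau arrays. The values ran from -0.91 for Sesn1 (SE 0.59) to -0.06 for Map1lc3b (SE 0.13), and the 3 NPtau arrays lay below the 3 NP arrays for Bnip3, as for 2.4% of all genes. Bnip3 read 13.26, 13.16 and 12.99 on NP and 12.94, 12.57 and 12.85 on NPtau, a difference of -0.35 (SE 0.19, limma adjusted p = 0.995). By limma 0 of the 10 and 0% of all genes were called, and 0 of the 10 and 2.75% of all genes had an unadjusted p under 0.05.

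For LPtau against LP in liver limma called 0 of the 10 genes and 0.066% of all genes, and at an unadjusted p under 0.05 there were 0 of the 10 and 8.48% of all genes. The 10 differences had a median of -0.02. Limma called 0 of the 10 and 0% of all genes for LPtau against NP, LPtau against NPtau and the interaction in liver. Unadjusted p-values under 0.05 in these were found for 1, 0 and 0 of the 10 genes and for 6.77%, 4.74% and 8.46% of all genes.

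Around the 10 genes, 8 of the 194 pathway genes passed limma for LP against NP in liver, where 2.34% of all genes were called, and 6 of them rose. An unadjusted p under 0.05 was found for 19.6% of the 194 and 22.7% of all genes. Prodh, the enzyme that opens proline breakdown, rose by 1.20 (SE 0.19, limma adjusted p = 0.0172). Dbt and Bckdhb, subunits of the branched chain keto acid dehydrogenase complex, rose by 1.19 (SE 0.20) and 1.03 (SE 0.17), each with limma adjusted p = 0.0182. Atg5, which helps join ATG8 proteins to lipid, rose by 0.67 (SE 0.12, limma adjusted p = 0.0272). Sod2, the mitochondrial superoxide dismutase and a FOXO3 target, rose by 0.57 (SE 0.11, limma adjusted p = 0.0318), and Fbxo21, an F-box protein, by 0.76 (SE 0.15, limma adjusted p = 0.0308).

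Both genes that fell belong to the regulators of FOXO. Sgk1, a kinase that phosphorylates FOXO factors and is induced by glucocorticoids, fell by 1.40 (SE 0.29, limma adjusted p = 0.0382), and Prkaa1, a catalytic subunit of the energy sensor AMPK, fell by 1.15 (SE 0.25, limma adjusted p = 0.0425). The list of FOXO factors and regulators had 14 of 16 negative differences in liver and a median of -0.37. Leukocyte genes (13 measured) had 12 negative LP minus NP differences in liver, of which 2 fell by limma (Rag1 and Cd79b), with a median of -0.50, and endothelial genes (10 measured) had 8, of which 3 fell (Cdh5, Esam and Pecam1), with a median of -0.44. The part of those cells in the liver differences was not tested.

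The genes whose muscle pattern was most like that of each of the 10 were named by Pearson correlation over the 12 muscle arrays among 8913 genes, as a description. Trim63 was most like Pnkd (0.979), Ankrd24 (0.963) and Asrgl1 (0.962), and Fbxo32 most like Adam9 and Irgm1 (both 0.912) and Rtp4 (0.910). Sesn1 was most like Fdx1 (0.946), Mrpl21 (0.941) and Tatdn3 (0.940). Gabarapl1 was most like Plin2 (0.950), which coats lipid droplets, Rasa3 (0.944) and Cav1 (0.939), and Bnip3 most like Sik2 (0.974), Dram1 (0.947) and Pmvk (0.946). Sqstm1 was most like Kctd9 (0.981), Foxo4 like Nabp2 (0.957), Klf15 like Tmx2 (0.934), Map1lc3b like Caprin1 (0.926) and Foxo3 like Herpud2 (0.920). These points share diets and arrays, so the values hold differences between groups and between arrays alike.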

How the data were processed

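The authors deposited log2 signals for every probe set. The submitters' processing notes name RMA and R 2.7.0, and also MAS5 without its role. Liver and muscle were normalized separately, per the labels. No further normalization or filter on low values was applied. The platform annotation gave 1 symbol to 34945 of 45101 probe sets. Where a gene had several, that of highest mean signal in the tissue's 12 arrays stood for it, which left 18193 genes. A probe set shared by Foxo3 and Gm38485 was left out.

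Muscle and liver were fitted apart by lmFit, contrasts.fit and eBayes of limma 3.58.1 (R 4.3.3), with a mean for each of 4 diets, and p-values were adjusted by Benjamini-Hochberg over all genes at a threshold of 0.05. The tissue comparison used all 24 arrays as separate samples, and as an alternative diet and number as a block, as if muscle and liver of the same number were from the same pup. Intervals are 95% and not adjusted. The fit was tested on simulated data. The 10 genes and the pathway and marker lists were chosen with earlier results of these data known. Besides the 10 genes, the text names those that were called in a pathway list, otherwise the gene with the smallest p in it, and for each of the 10 the 3 genes most like it or the first of them. Trp53inp2, Fbxo31, Slc2a4 and Npc1 were selected for LPtau against LP from the smallest p of their lists. Alternatives comprised leaving out each array, other normalizations, probe set rules, filters, sex, the replicate number as a block, trend and robust fitting, and array weights. The sequences came from RefSeq tables of GRCm38.p6. Array number limits the precision.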

Additional observations from a re-analysis of the deposited data

How the results depend on the processing

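Of 3434 recomputed values of the 10 genes over 150 gene and comparison pairs, 3395 moved by less than the spread between arrays or not at all. Of the rest 33 moved by more and 6 became calls by limma. Part of this count was fixed beforehand, since leaving out an array of a diet not compared cannot move a difference of 2 diets. A change of sign was not counted as a move. Map1lc3b, for example, kept its sign for LP against NP in muscle in 17 of 23 alternatives. Array weights, chosen after seeing the data, called 2 genes for LP against NP in muscle (Fbxo32 and Sesn1), and in liver 1 for LP against NP (Foxo3, adjusted p = 0.0164) and 1 for low against normal protein over both waters (Foxo3, adjusted p = 0.0229). The probe set with the largest variance called 1 in liver for LP against NP (Foxo3), and testing all probe sets called 1 for low against normal protein (Map1lc3b). All other settings, each left-out array included, called 0. Over all genes LP against NP in muscle ranged from 2 calls (without NP replicate 2) to 789 (array weights) beside 23, and LPtau against LP from 0 to 281 beside 4. In liver the ranges were 21 to 4727 beside 425 for LP against NP, 0 to 512 beside 12 for LPtau against LP and 13 to 2616 beside 269 for low against normal protein. The cause of these shifts was not tested. Numbers shared by arrays of different diets did not pair them, since their deviations correlated at -0.44 to 0.34 in muscle and -0.21 to 0.42 in liver. With the replicate number as a block 0 of the 10 genes were called in each comparison, and 2 genes in all for LP against NP in muscle. The filter at the median level left Fbxo32 and Trim63 out in liver. With 3 arrays a diet many of the 95% intervals are wide, so a gene that was not called cannot be taken as unchanged.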
